A study of Sus scrofa with 12 samples.

Results

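The enzymes that make fatty acids from acetyl-CoA and then elongate and desaturate them were examined, with their main transcriptional regulator, in the duodenal mucosa of pigs. The set was chosen by gene name, as SCD, FASN, ACACA, ACACB, ACLY, ELOVL6, FADS1, FADS2, SREBF1 and ME1. Of these 10 genes, 9 had at least 1 probe set in the annotation of the array, out of 13664 annotated genes, and they were covered by 18 of the 47722 probe sets that are not controls. FADS1, the delta-5 desaturase, is not named in that annotation and was not analysed here. For each gene the probe set with the highest mean over all arrays, numbered 1 below, stands for the gene, and the others served as a check. The tissue came from 12 pigs aged 140 days, 1 array per pig. The labels place 6 pigs in a high and 6 in a low feed efficiency (FE) group, FE being how well feed is turned into growth, with 3 males and 3 females in each. Pigs 1 to 3 of each group are male and pigs 4 to 6 female. All 12 share the species, the tissue and the age, and no treatment, breed or allele is given. Whether the males were castrated is not given in the sources used here.

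De novo lipogenesis starts when citrate leaves the mitochondrion and ATP citrate lyase (ACLY) splits it into acetyl-CoA. Acetyl-CoA carboxylase makes malonyl-CoA from it, fatty acid synthase (FASN) joins the units into palmitate, and malic enzyme (ME1) supplies NADPH for the reductions. ELOVL6 lengthens palmitate, stearoyl-CoA desaturase (SCD) introduces the double bond of oleate, and FADS1 and FADS2 desaturate polyunsaturated fatty acids. SREBF1 encodes SREBP-1, which activates most of these genes in response to insulin and feeding. In pigs the main site of this pathway is adipose tissue, while the duodenal epithelium takes up dietary fat and exports it in chylomicrons.

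All values are log2 signals as deposited. The 12 array medians lay between 3.83 and 3.91, and the median of 69 antigenomic control probe sets, designed against no pig sequence, lay between 2.16 and 2.53. Single controls of this kind had means from 1.21 to 7.62, so that a signal above their median is not on its own evidence of a transcript. The label of the tissue was checked on 9 enterocyte markers, whose means ran from 7.55 for SI to 11.50 for ANPEP. The other 8 were above the highest of those control means, and SI was within their range. The array of low FE pig 6 stood apart in pancreatic acinar markers, with a mean of 6.76 against 2.37 to 2.99 in the other 11 pigs. High FE pigs 1, 2 and 5 were lowest on the first principal component. The pig identifiers form 2 runs of numbers: the second holds 4 females, pigs 5 and 6 of each FE group, and no male. The labels do not say what a run stands for. In bulk mucosa, fewer cells of a type and less RNA per cell cannot be told apart. With 12 arrays, the number of pigs limits the precision of every value.

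ELOVL6 was not above background: its mean was 1.56, its 12 values ran from 1.22 to 1.75, and it was left out of the tests by the filter at 2.37. The other 8 genes and 17 of the 18 probe sets were kept. ACACB, FADS2 and ME1 had means of 3.51, 3.49 and 3.72, about 1 log2 unit above the background medians. The brightest probe sets of SCD, FASN, ACACA, ACLY and SREBF1 had means from 6.26 to 9.39. Those of SCD (6.26), SREBF1 (6.85) and ACACA (7.08) were within the range of single control means, which reached 7.62.

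Male pigs had higher mean signals than females for 6 of the 8 genes kept: SCD, FASN, ACACA, ACLY, SREBF1 and ME1. SCD had the widest difference, 2.61-fold, and ACLY and ACACA differed by 1.32-fold and 1.27-fold. None of the 8 passed an adjusted p of 0.05 in limma, where 7 of 33405 probe sets (0.021%) did. At an unadjusted p under 0.05, 3 of the 8 were higher in males (SCD, ACACA and ACLY), against 2.31% of all probe sets. None was lower, against 2.23%. The median difference over the 8 genes was 0.31, beside 0.003 over all probe sets kept, of which 50.6% were higher in males.

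SCD, the delta-9 desaturase that makes oleate, had values of 6.88, 7.49 and 7.28 in high FE males. The low FE males had 6.94, 7.13 and 5.97. The high FE females had 6.62, 5.53 and 4.86, and the low FE females 6.18, 4.69 and 5.50. Every male but low FE pig 3 was above every female, and in 34 of 36 pairs of a male and a female the male was higher. The SCD mean of the males was 6.95 ± 0.53 (SD, n = 6) and that of the females 5.56 ± 0.74 (SD, n = 6). The difference of 1.38 ± 0.33 (SE), with a 95% interval from 0.67 to 2.10, had a limma p of 0.00115 before adjustment, rank 35 of the 33405 probe sets, and an adjusted p of 0.975. A two-sided exact permutation test of sex within FE groups gave p = 0.01, where 0.005 is the smallest the design allows.

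The size of the SCD difference depended on the run of identifiers. The 4 females of the second run had an SCD mean of 5.15, with values from 4.69 to 5.53, and the 2 females of the first run had 6.18 and 6.62. Within the first run, which holds 6 males and those 2 females, the male mean exceeded the female mean by 0.55. The fit with the run as a term gave the same 0.55, as it must, because only the first run holds both sexes. It is not a second check. Sex and run are partly the same split, so that for SCD they cannot be told apart beyond this value.

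**Figure D1:**
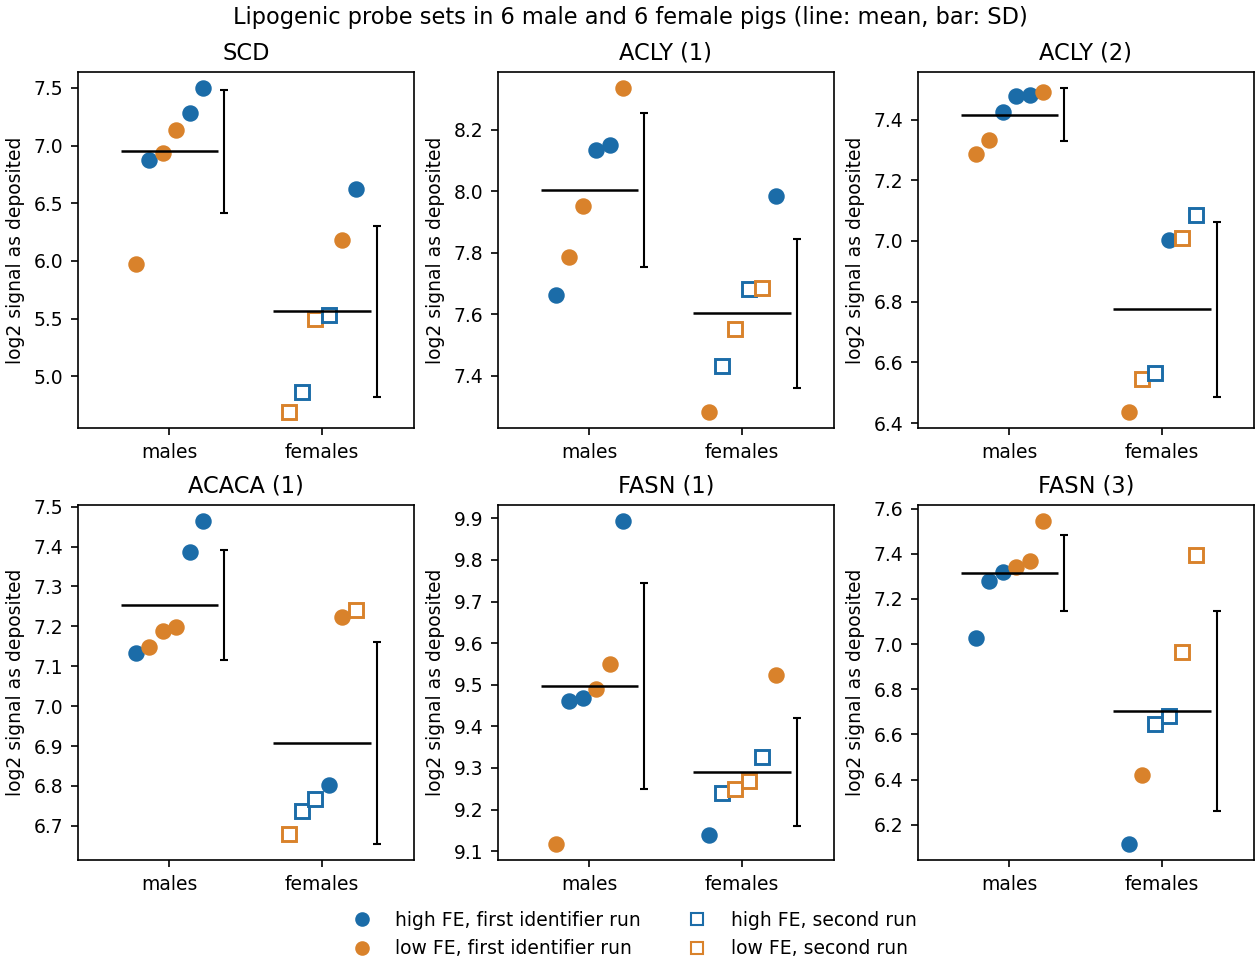
Log2 signal (vertical axes, each panel with its own range) of 6 probe sets in 6 males and 6 females; circles are pigs of the first and squares pigs of the second run of identifiers, colour gives the FE group, the line is the mean and the bar the SD. The 4 SCD values of the second run are the lowest of the 12, and the male and female values of ACLY (2) do not overlap.

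ACLY, the source of cytosolic acetyl-CoA, had values from 7.66 to 8.34 in males (median 8.04) and from 7.28 to 7.99 in females (median 7.62). The groups overlapped, and in 31 of 36 pairs the male was higher. The means were 8.004 ± 0.25 and 7.60 ± 0.24 (SD, n = 6 each), a difference of 0.40 ± 0.15 (SE) with an unadjusted limma p of 0.021, an adjusted p of 0.975 and p = 0.03 in the exact permutation test. Its other probe set went the same way and was correlated with the first over pigs (r = 0.83). That probe set, ACLY (2), ran from 7.29 to 7.49 in males and from 6.44 to 7.09 in females. Every male was above every female, as for 46 of all 33405 probe sets (0.138%). ACLY (2) differed by 0.64 ± 0.13 (SE), with an adjusted limma p of 0.782. Within the first run of identifiers the differences of the ACLY probe sets were 0.37 and 0.69, close to those over all pigs.

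ACACA encodes the cytosolic carboxylase that commits acetyl-CoA to fatty acid synthesis. It had values from 7.13 to 7.46 in males (median 7.19). The females ran from 6.68 to 7.24 (median 6.78), with 4 of them between 6.68 and 6.80 and low FE pigs 4 and 6 at 7.22 and 7.24. The means were 7.25 ± 0.14 and 6.91 ± 0.25 (SD, n = 6 each) and differed by 0.35 ± 0.13 (SE), with an unadjusted limma p of 0.024, an adjusted p of 0.975 and p = 0.05 in the exact permutation test. ACACA (2) and (3) differed by 0.40 and 0.45, and ACACA (4), which is dim at a mean of 3.07, by 0.03. Within the first run of identifiers the differences of ACACA (1), (2) and (3) were 0.24, 0.14 and 0.19, all smaller than over all pigs.

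FASN, the multifunctional synthase, was spread differently over its 3 probe sets. FASN (1) overlapped widely, from 9.12 to 9.89 in males (median 9.48) and from 9.14 to 9.52 in females (median 9.26). Its difference was 0.21 ± 0.13 (SE), with an unadjusted limma p of 0.143, and it came to 0.12 without high FE pig 2 and to 0.099 without high FE pigs 1, 2 and 5. FASN (2) and (3) differed by 0.42 ± 0.14 and 0.61 ± 0.17 (SE), with unadjusted limma p-values of 0.013 and 0.003. The first run of identifiers, with 2 females, gave differences of 0.17, 0.40 and 1.05 for FASN (1), (2) and (3). For FASN (3) this is larger than over all pigs, and the second-run females had a mean 0.66 above those of the first run. In FASN (3), 5 of the 6 females lay between 6.11 and 6.97 and the males between 7.03 and 7.55, while low FE female 5 had 7.40. FASN (1) was only loosely correlated with the other probe sets over pigs (r = 0.35 and 0.36), and those with each other at r = 0.68. Counted by probe set, 15 of the 17 kept had higher means in males, and 8 did so at an unadjusted p under 0.05, against 2.31% of all probe sets. These 8 belong to SCD, FASN, ACACA and ACLY, and the probe sets of ACACB, FADS2, ME1 and SREBF1 hold none. Probe sets of a gene share their transcript and are not independent observations.

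ME1, which makes NADPH from malate, differed by 0.27 ± 0.15 (SE) between males and females, with 31 of 36 pairs higher in the male and an unadjusted limma p of 0.092. SREBF1 differed by 0.36, 0.10, 0.15 and 0.25 over its 4 probe sets, the first with an SE of 0.23. SREBF1 (1) differed by 0.22 without low FE pig 2 and by 0.66 without high FE pigs 1, 2 and 5. ACACB, the carboxylase of the outer mitochondrial membrane, had a male minus female difference of -0.06 ± 0.16 (SE). The delta-6 desaturase FADS2 had -0.09 ± 0.18 (SE). For both, the interval of the difference includes 0 and runs from -0.41 to 0.29 and from -0.47 to 0.30.

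**Figure D2:**
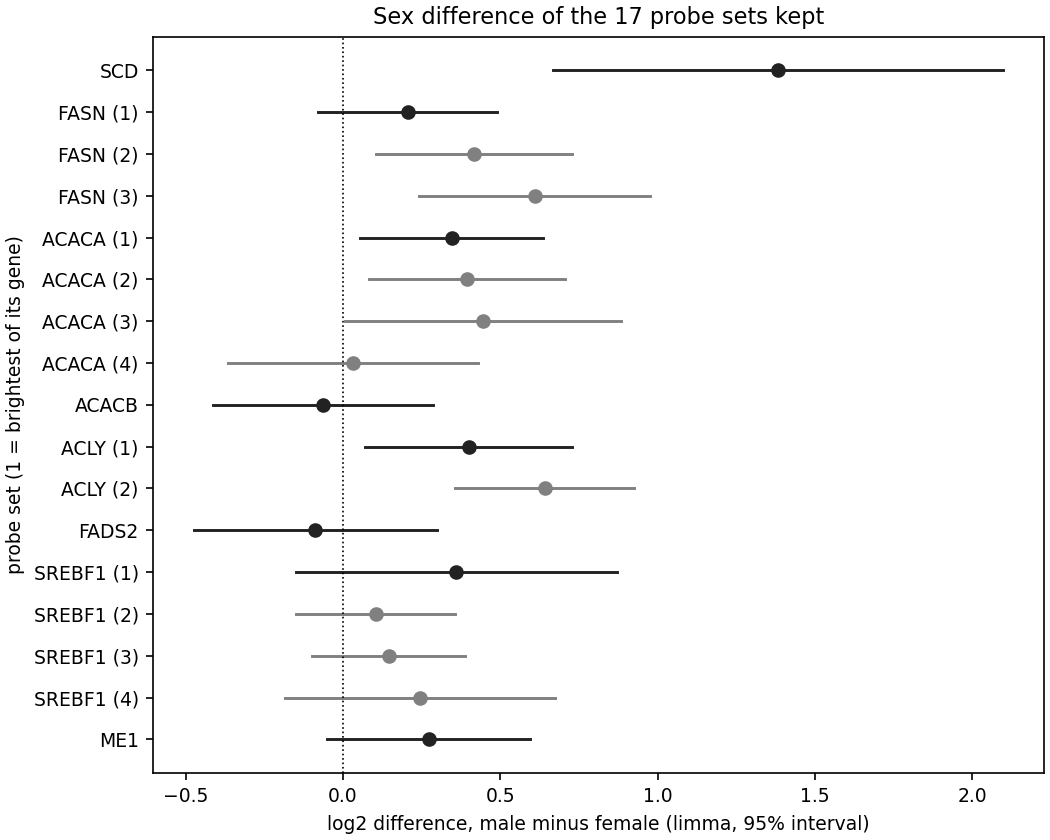
Male minus female log2 difference (horizontal axis) with its 95% interval from limma for the 17 probe sets kept; black marks the brightest probe set of a gene and grey the others. The differences of 15 probe sets are above 0, and those of ACACB and FADS2 below it.

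Markers of other cell types were compared between the sexes as well, beside the 50.6% of all probe sets with higher male means, and none passed the adjusted threshold in limma. Goblet cell markers had higher male means for 5 of 5 genes, with levels from 9.07 to 9.61 in males and 8.89 to 9.45 in females. AGR2, a secretory disulfide isomerase, differed by 0.91 ± 0.34 (SE) at an unadjusted limma p of 0.020 and an adjusted p of 0.975. Brunner gland and gastric-type markers had higher male means for 6 of 7 genes (median difference 0.73), with levels from 5.46 to 10.72 in males and 6.05 to 8.79 in females. Enterocyte markers had lower male means for 6 of 9 genes, over 8.33 to 10.45 and 8.76 to 10.24. Adipocyte markers had lower male means for 6 of 8 genes, over 4.87 to 6.20 and 5.04 to 5.96. In that list ADIPOQ and CIDEC had means of 6.86 and 7.87, and LEP was near background at 2.48. The SCD difference was 1.39 with the Brunner gland and gastric-type level as a term, 1.42 with the enterocyte level and 1.26 with the adipocyte level. The part of goblet cell content in these differences was not tested.

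Between high and low FE the genes did not move as a group. Of the 8 kept, 4 had higher and 4 lower means in high FE, and the median of the differences was -0.0046, beside -0.02 over all probe sets, of which 46.0% were higher. None passed an adjusted p of 0.05 in limma, nor did any of the 33405 probe sets (0%). At an unadjusted p under 0.05, 1 of the 8 was lower in high FE, ACACB, against 3.34% of all probe sets. None was higher, against 2.65%.

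ACACB makes the malonyl-CoA that restrains entry of fatty acids into mitochondria. Its values ran from 2.84 to 3.65 in high FE (median 3.35) and from 3.34 to 4.03 in low FE (median 3.72). The groups overlapped, with the lowest value in high FE pig 5 and the highest values in low FE females 5 and 6. The means were 3.30 ± 0.28 and 3.72 ± 0.26 (SD, n = 6 each), a difference of -0.42 ± 0.16 (SE) with an unadjusted limma p of 0.022, an adjusted p of 0.753 and p = 0.035 in the exact permutation test of FE within sexes. The signal is dim, and the difference came to -0.29 when the array background was a term and to -0.21 in the first run of identifiers alone.

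SCD ran from 4.86 to 7.49 in high FE (median 6.75) and from 4.69 to 7.13 in low FE (median 6.08), so that the groups overlapped over nearly their whole range. The difference of 0.38 ± 0.33 (SE) had an interval from -0.34 to 1.09, and it was 0.18 when high FE pig 4 was left out and 0.57 when high FE pig 6 was. FASN (1) differed by 0.06 ± 0.13 (SE), FASN (2) by -0.23 ± 0.14 and FASN (3) by -0.33 ± 0.17. The FASN probe sets thus disagreed in sign, and none had an unadjusted p under 0.05. ACLY (1) and ACACA (1) differed by 0.08 ± 0.15 and -0.06 ± 0.13 (SE), with intervals from -0.25 to 0.40 and from -0.36 to 0.23. FADS2 and ME1 had lower means in high FE, by -0.27 ± 0.18 and -0.24 ± 0.15 (SE), and SREBF1 (1) a higher one, by 0.20 ± 0.23. The size of these differences changed when single pigs were left out, and for FADS2 and ME1 also with the array background as a term. With the array background as a term FADS2 and ME1 differed by -0.10 and -0.078. FADS2 differed by -0.16 without high FE pig 5 and by -0.38 without high FE pig 6. ME1 differed by -0.14 without low FE pig 6 and by -0.29 without low FE pig 5. Both kept lower means in high FE in 25 of 25 alternatives. Some of these cannot change the difference by design and others share most pigs, so that the count is not independent support. SREBF1 (1) differed by 0.084 when high FE pig 6 was left out and by 0.38 when high FE pig 1 was.

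**Figure D3:**
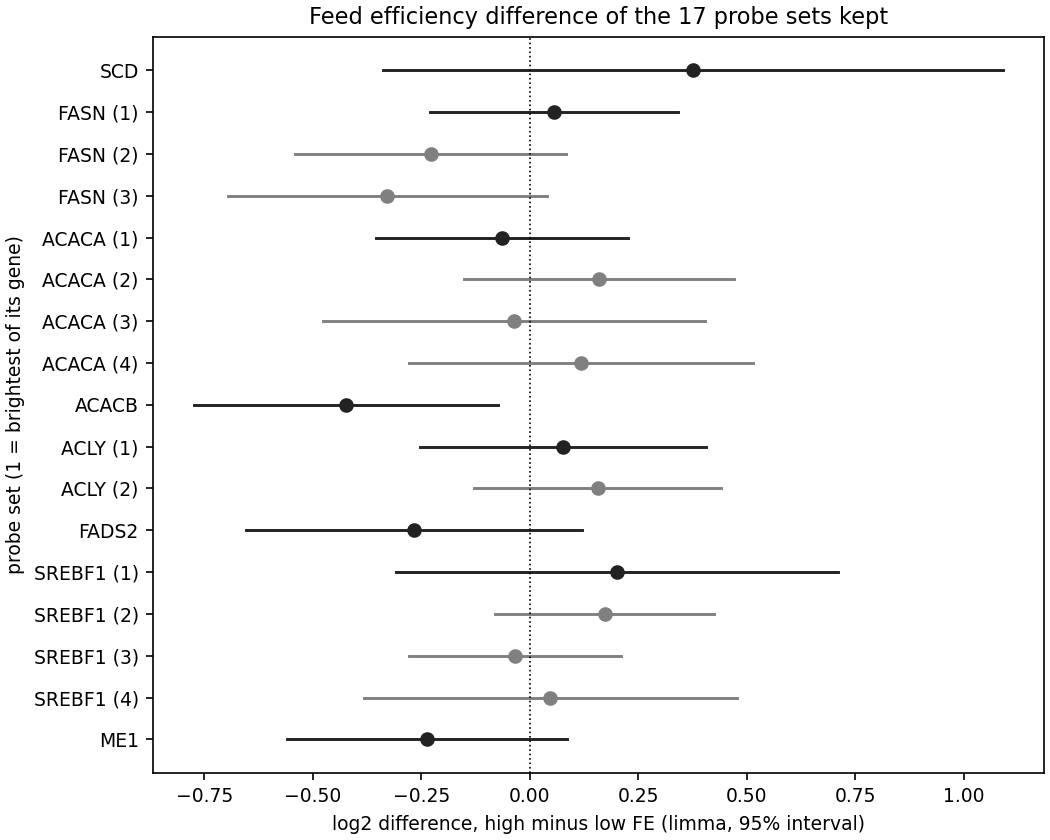
High minus low FE log2 difference (horizontal axis) with its 95% interval from limma for the 17 probe sets kept; black marks the brightest probe set of a gene and grey the others. Only the interval of ACACB, from -0.77 to -0.07, does not include 0.

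Markers of other cell types were compared between the FE groups as well, beside the 46.0% of all probe sets with higher means in high FE. None passed the adjusted threshold in limma. All 8 adipocyte markers had lower means in high FE (median difference -0.20), with levels from 4.87 to 5.96 in high and 4.94 to 6.20 in low FE. All 7 Brunner gland and gastric-type markers also had lower means (median -0.92), with levels from 5.46 to 8.90 and 6.56 to 10.72. All 7 smooth muscle markers had lower means, with levels from 7.97 to 8.51 and 8.13 to 8.88. Of these, TAGLN differed by -0.52 ± 0.19 (SE), at an unadjusted limma p of 0.016 and an adjusted p of 0.753. Goblet cell markers had lower means for 5 of 5 genes. Pancreatic markers did so for 3 of 3. Their level was 6.76 in low FE pig 6 and from 2.37 to 2.99 in the other pigs. Higher means were found for 6 of 9 enterocyte and 2 of 5 immune markers. The immune marker PTPRC differed by 0.74 ± 0.25 (SE), at an unadjusted limma p of 0.012 and an adjusted p of 0.753. At an unadjusted p under 0.05, 1 adipocyte, 2 goblet cell and 3 smooth muscle markers were lower, against 3.34% of all probe sets. Only PTPRC was higher, against 2.65%. The part of smooth muscle and goblet cell content in the differences of the 8 genes was not tested. With the marker level as a term the SCD difference between FE groups was 0.13 (adipocyte) and 0.36 (Brunner gland and gastric-type), and that of ACACB -0.36 and -0.49.

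SREBF1, the regulator, was the gene of the set with the lowest unadjusted p for a dependence of the FE difference on sex. SREBF1 (1) had 6.71, 7.15 and 7.30 in high FE females and 6.40, 6.34 and 6.12 in low FE females, which do not overlap. The share of all probe sets whose females separate in this way was not computed, and with so few pigs per combination such a separation can arise by chance. The high FE males had 6.33, 7.13 and 7.07 and the low FE males 7.11, 7.56 and 6.97, which overlap. The FE difference was 0.77 ± 0.25 (SE) in females and -0.37 ± 0.25 in males. The difference between the sexes, -1.13 ± 0.36 (SE), had an unadjusted limma p of 0.00831, rank 138 of 33405, and an adjusted p of 0.998. It was the 1 gene of 8 with a lower interaction at an unadjusted p under 0.05, against 1.46% of all probe sets, and 0 of 8 passed the adjusted threshold, which 1 probe set of all did (0.00299%). The other SREBF1 probe sets had smaller interactions of -0.14, -0.03 and -0.60, and the mean of all 4 had -0.48. The low FE females include pig 6, whose array carries the pancreatic markers and whose SREBF1 (1) value is the lowest of the 12. Without this pig the interaction was -1.05.

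**Figure D4:**
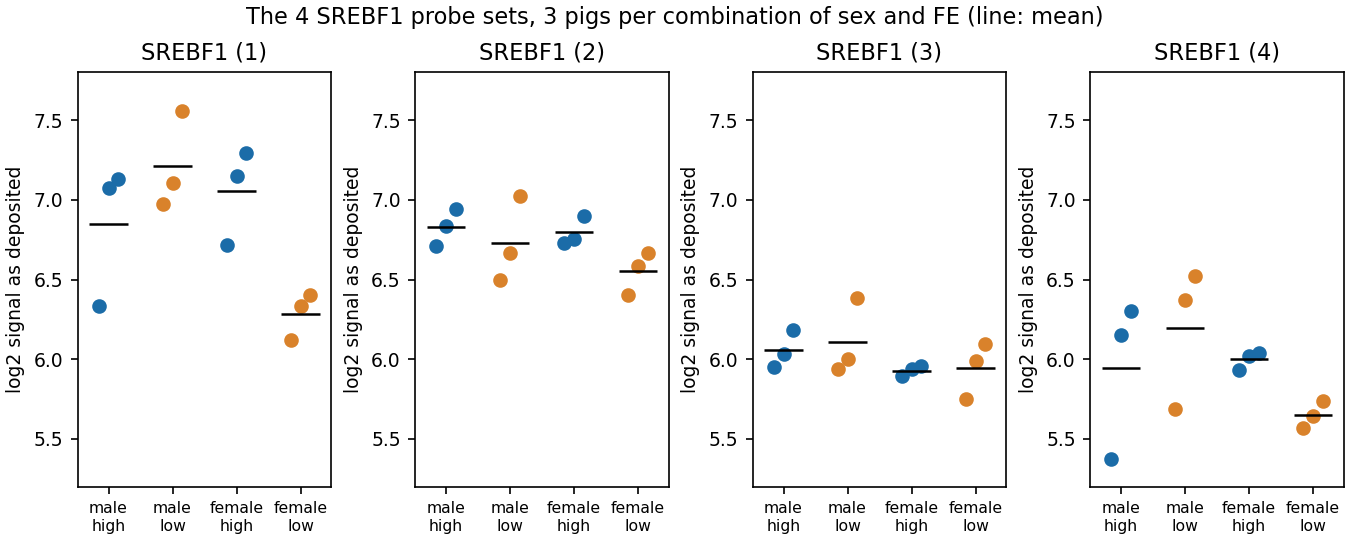
Log2 signal (vertical axis) of the 4 SREBF1 probe sets in each combination of sex and FE group, 3 pigs each; points are pigs and lines means. In SREBF1 (1) the low FE females, from 6.12 to 6.40, lie below the high FE females, and in SREBF1 (3) all combinations overlap.

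SREBP-1 activates the enzyme genes, and the relation of each of 8 genes with the level of SREBF1 mRNA was computed over the 12 pigs. None passed after Benjamini-Hochberg adjustment over the 8. SCD had r = 0.32 (permutation p = 0.31, adjusted 0.621) and rho = 0.30 (p = 0.342, adjusted 0.684). ACLY had r = 0.54 (permutation p = 0.069, adjusted 0.186) and rho = 0.38 (p = 0.229, adjusted 0.609). FASN had r = 0.19 and rho = 0.11, and ACACA r = 0.06 and rho = -0.08, with adjusted permutation p-values from 0.87 to 0.901. ACACB was the gene most strongly related, in the negative direction, with r = -0.61 (permutation p = 0.036, adjusted 0.186) and rho = -0.64 (p = 0.028, adjusted 0.131). ELOVL6, whose values are at background, had r = -0.54 and rho = -0.63, with adjusted permutation p-values of 0.186 and 0.131. FADS2 and ME1 had r of -0.04 and -0.10, and rho of 0.06 and -0.11, with adjusted permutation p-values from 0.87 to 0.901.

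Without the pigs farthest from the SREBF1 median, low FE pig 6 and high FE pig 1, r was 0.37 for SCD, 0.56 for ACLY and -0.45 for ACACB. With the means of the 4 combinations of FE and sex removed, r was 0.04 for SCD, 0.27 for ACLY, 0.48 for FASN and -0.46 for ACACB, with adjusted permutation p-values from 0.547 to 0.902. In the 6 males alone, ACLY had r = 0.84 (exact permutation p = 0.028, adjusted 0.222). In the 6 females it had r = 0.01 (exact permutation p = 0.985), and the difference between the sexes was not tested. Values of an array share its background and its normalization, so that such correlations are not of independent measurements.

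Among themselves, the 8 genes kept formed 28 pairs, of which 19 had r above 0, with a median r of 0.30. The enzymes SCD, FASN, ACACA and ACLY were positively correlated in 6 of 6 pairs, with r from 0.33 for FASN and ACLY to 0.73 for SCD and ACACA and a median of 0.57. After the means of the 4 combinations of FE and sex were removed, these 6 pairs ran from 0.01 for SCD and FASN to 0.57 for SCD and ACACA, with a median of 0.34. The dimmer genes ACACB, FADS2 and ME1 formed another group of positive pairs, at r = 0.56 for ACACB and FADS2, 0.52 for ACACB and ME1 and 0.42 for FADS2 and ME1. ACACB was negatively correlated with SCD (r = -0.36). These are descriptions over 12 pigs.

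The genes whose pattern over the 12 pigs was most like that of SCD, by Pearson r among 12220 genes, were SNRPF and WDR61 (r = 0.90 each), SEC23B (0.89), HYOU1 (0.88), and NUP93 and COPB2 (0.87 each). SNRPF is a core protein of spliceosomal snRNPs, SEC23B and COPB2 coat transport vesicles between the endoplasmic reticulum and the Golgi, HYOU1 is a chaperone of the endoplasmic reticulum and NUP93 a nuclear pore protein. Among members, ACACA had rank 48 and ACLY rank 79 in likeness to SCD, and FASN rank 1006. These r and ranks include the differences between the sexes and FE groups. With the means of the 4 combinations of FE and sex removed, r with SCD ran from 0.62 for HYOU1 to 0.86 for WDR61 over the genes most alike. It was 0.57 for ACACA, 0.42 for ACLY and 0.01 for FASN. The run of identifiers was not removed. For FASN (1) the most alike were PCDH12 (r = 0.93), ADCY5 and ZNF10 (0.88 each), SLC26A9 and SUMO2 (0.86 each) and TBK1 (0.82). ACACA had rank 52 in likeness to FASN and SCD rank 756.

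The steps around the pathway were followed in lists of related genes. Beside their counts stand the shares over all probe sets, of which 46.0% had higher means in high FE and 50.6% in males. Of 17 regulators of lipogenesis kept, 11 had higher means in males (median difference 0.05) and 7 in high FE (median -0.09). SREBF2, the regulator of cholesterol synthesis, differed by 0.19 ± 0.10 (SE) between the sexes, and INSIG1, which retains SREBPs in the endoplasmic reticulum, by 0.33 ± 0.18. Their unadjusted limma p-values were 0.078 and 0.099. FBXW7, a ubiquitin ligase subunit that targets mature SREBPs, had 6.61 ± 0.28 (SD, n = 6) in high and 6.30 ± 0.18 in low FE. Its unadjusted limma p was 0.046 and its adjusted p 0.753. It was the 1 gene of 17 higher in high FE at an unadjusted p under 0.05, against 2.65% of all probe sets.

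Of 13 genes of citrate export, acetyl-CoA and NADPH supply, 10 had lower means in high FE (median -0.22). At an unadjusted limma p under 0.05, 0 were lower or higher, against 3.34% and 2.65% of all probe sets. Citrate synthase CS had 10.05 ± 0.32 (SD, n = 6) in high and 10.33 ± 0.08 in low FE, at an unadjusted limma p of 0.071, and the acetyl-CoA synthetase ACSS1 differed by -0.24 ± 0.11 (SE). By sex, 9 of the 13 had higher means in males (median 0.09). PGD, which makes NADPH in the pentose phosphate pathway, differed by 0.25 ± 0.13 (SE) and the transketolase TKT by 0.20 ± 0.12.

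Of 11 elongation and desaturation partners, 6 had higher means in males, with a median close to 0, and 8 had lower means in high FE (median -0.03). ELOVL5, which elongates polyunsaturated fatty acids, had a male mean of 7.05 ± 0.15 and a female mean of 6.70 ± 0.15 (SD, n = 6 each). Its unadjusted limma p was 0.00794 and its adjusted p 0.975. It was the 1 gene of 11 higher in males at an unadjusted p under 0.05, against 2.31% of all probe sets. ELOVL1, an elongase of very long chains, and SCD5, a second stearoyl-CoA desaturase, had lower means in high FE by -0.39 ± 0.18 and -0.29 ± 0.13 (SE), at unadjusted p-values of 0.051 and 0.052.

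Among 11 acyl-CoA synthetases and genes of malonyl-CoA handling, 6 had higher means in high FE and 5 in males, with medians of 0.04 and -0.05. CPT1A, the mitochondrial carnitine palmitoyltransferase that malonyl-CoA inhibits, had 6.64 ± 0.41 (SD, n = 6) in high and 7.23 ± 0.57 in low FE. Its difference of -0.59 ± 0.26 (SE) had an unadjusted limma p of 0.043 and an adjusted p of 0.753. MLYCD, which breaks malonyl-CoA down, differed by -0.32 ± 0.12 (SE) between FE groups and by -0.35 ± 0.12 between the sexes. Its unadjusted limma p-values were 0.023 and 0.015. At an unadjusted p under 0.05, 2 of the 11 were thus lower in high FE, against 3.34% of all probe sets. By sex 1 was lower in males, against 2.23%.

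Of the other lists, mitochondrial fatty acid synthesis had 6 of 9 genes lower in high FE (median -0.08) and 6 higher in males (0.04). Its HSD17B8 differed by -0.36 ± 0.18 (SE) between FE groups, and MECR by 0.26 ± 0.13 between the sexes. Subunits and activators of AMPK, the kinase that inactivates acetyl-CoA carboxylase, had 6 of 10 genes higher in high FE and 7 of 10 in males, with medians of 0.03 and 0.04. Its beta subunit PRKAB1 differed by 0.27 ± 0.13 (SE) between the sexes, at an unadjusted limma p of 0.055. Cholesterol synthesis genes, most of them known targets of SREBF2, had 7 of 10 genes higher in males (median 0.14) and 5 of 10 in high FE (0.01). HMGCS1 differed by 0.49 ± 0.33 (SE) between the sexes. No gene of these 7 lists passed the adjusted threshold in limma for FE or for sex.

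**Figure D5:**
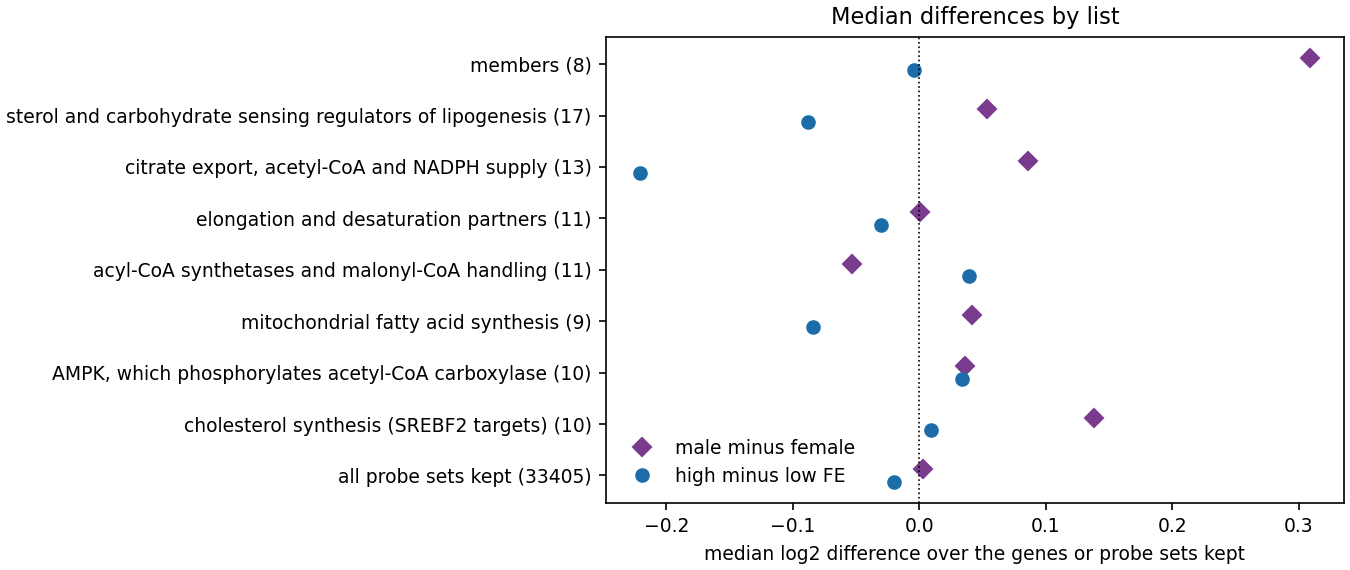
Median log2 difference (horizontal axis) between males and females (diamonds) and between high and low FE (circles) over the genes kept of each list, with their number in brackets, and over all probe sets. The lists plotted leave out the cell type markers (Brunner gland and gastric-type, 0.73). Among the lists plotted, the set described here has the largest male minus female median, 0.31. Citrate export, acetyl-CoA and NADPH supply has the lowest high minus low FE median, -0.22. The set and the lists were chosen with earlier results of these data known, so that these ranks are descriptions only.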

How the data were processed

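Duodenal mucosa of 12 pigs was measured on 12 Affymetrix arrays, 1 per pig. The log2 values were used as deposited. That scale was read from the values, and how the authors corrected background, normalized and summarized probes is not given in the sources used here. GCOS 1.1.1 appears in the submitters' processing notes. Symbols came from the platform annotation, which can be old, and 263 of 13755 were updated through a table of the Sscrofa11.1 genes.

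Probe sets with a mean above the 30th percentile (log2 2.37) were kept. To the 33405 kept, a linear model with FE and sex as terms was fitted by lmFit and eBayes of limma 3.58.1 (R 4.3.3), with Benjamini-Hochberg adjustment over all of them and a threshold of 0.05. A mean for each combination of FE and sex gave the interaction. Exact permutation tests used 400 assignments, and relations with SREBF1 100000 resamples (exact within a sex), in scipy 1.17.1. The fit was tested on simulated data with independent normal noise for each probe set. Those data hold no differences shared by an array or a cell type, and no result above rests on them.

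The genes and the lists were chosen with earlier results of these data known. Named list genes are those with an unadjusted p under 0.05, at most 6 per list and comparison, otherwise the 2 with the lowest p. Levels of a list are means over all its genes with a probe set, including any below the filter. Genes whose pattern is alike are the 6 with the highest r. Alternatives changed the filter, normalization, variance model, array weights, probe sets per gene, model terms and set of pigs. Terms for the Brunner gland and gastric-type and for the enterocyte markers were added after the data were seen.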

Additional observations from a re-analysis of the deposited data

Results flagged for a closer look

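In 36 groups of 6 pigs, the gap of the lowest or highest pig to its nearest neighbour was set against the range of the group and compared with Dixon's critical value at 95%. Chance passes about 1 in 20 such groups, and 3 passed. In low FE, ACACA was lowest in pig 5, a female, at 6.68, with the next pig at 7.15 and a ratio of 0.835. Among females, FADS2 was lowest in high FE pig 5 at 2.93, with the next pig at 3.56 and a ratio of 0.634. In high FE, ME1 was lowest in the same pig 5 at 3.11, with the next at 3.59 and a ratio of 0.626. High FE pig 5 also had the lowest ACACB value of the 12, and its array is among the 3 lowest on the first principal component. The median of its antigenomic controls, 2.16, was the lowest of the 12 arrays, and FADS2, ME1 and ACACB are dim. The part of background in the low values of this pig was not tested.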

How the results depend on the processing

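The number of genes past the adjusted threshold was 0 for FE, sex and the interaction under every alternative computed for them. The male minus female median stayed between 0.24 and 0.37. SCD, FASN, ACACA, ACLY, SREBF1 and ME1 kept higher male means under all alternatives run. Some alternatives, such as no filter, cannot change the difference of a gene, and others share most pigs. Without 1 pig at a time the SCD difference ran from 1.19 to 1.58. The FE median of -0.0046 is close to 0 and turned positive with no filter (0.0406), a filter at the 50th percentile (0.0759), quantile normalization (0.0270), array weights (0.0247), and with the array background (0.0192), the adipocyte (0.00883), Brunner gland and gastric-type (0.0395) or enterocyte markers (0.0133) as a term. Without 1 pig at a time it ran from -0.0728 to 0.0293, and the cause was not tested. FE differences that turned sign were ACACA with the mean of its probe sets (0.0441) and in the first run of identifiers (0.00735), FASN with the mean of its probe sets (-0.167) and without high FE pigs 1, 2 and 5 (-0.0386), and SREBF1 in the first run (-0.196). Sex differences that turned were ACACB (0.0605) and FADS2 (0.0599) with the array background as a term, and the SCD interaction did so with array weights (-0.188). Without 1 pig at a time, the FE difference ran from -0.123 to 0.00207 for ACACA, -0.000481 to 0.160 for ACLY and -0.0269 to 0.113 for FASN, the sex difference from -0.172 to 0.0148 for ACACB and -0.193 to 0.0284 for FADS2, and the interaction from -0.0544 to 0.298 for ME1 and -0.0824 to 0.797 for SCD. Relations with SREBF1 that turned were ACACA (r = -0.0186) and FADS2 (0.0352) under quantile normalization, ME1 without the 2 farthest pigs (0.190), FADS2 (0.193) and ME1 (0.169) in males, and SCD (-0.141), FASN (-0.145) and ACACA (-0.620) in females. The interaction was not computed within the first run of identifiers, which holds 1 female per FE group. No paired analysis was possible because pigs were numbered in accession order within a group and the numbers pair no pigs. Levels near the background limit what ACACB, FADS2, ME1 and ELOVL6 can show. SCD, SREBF1 and ACACA are brighter, but their means too were within the range of single control means.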
